A study of Mus musculus with 4 samples.

Results

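Genes of cellular iron uptake, storage and sensing were examined in murine 4T1 cells grown with or without an iron chelator. The set holds 10 genes, chosen by name for their role in iron handling, out of 49585 genes in the deposited table. They are the uptake genes Tfrc, Slc11a2, Steap3 and Slc39a14, the storage genes Fth1, Ftl1 and Ncoa4, and the sensing genes Aco1, Ireb2 and Fbxl5. Each of the 10 was found by its symbol and had over 1 FPKM in all libraries, so all of them are among the 12669 genes with at least 1 FPKM in at least 1 library, called the tested genes below. FPKM counts the sequenced fragments of a gene relative to the length of its exons and to the sequencing depth of the library, so it can be compared between genes.

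The 4T1 line is a triple-negative breast cancer (TNBC) line of BALB/c mouse origin. Its clones 4T1-HM and 4T1-LM, of high and low metastatic capacity, were each grown out from a single cell by limiting dilution, so each stands for 1 clone. HM_DFX and LM_DFX cells received 50 μmol/L of deferasirox (DFX), an iron chelator dissolved in DMSO, for 48 h. HM_Ctrl and LM_Ctrl cells received DMSO alone, and both clones shared medium and serum. Each of the 4 conditions has 1 library, so the differences below rest on single cultures and carry no p-value.

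Iron enters most cells as transferrin bound to the transferrin receptor, is reduced in the endosome and crosses into the cytosol, where the surplus is stored inside ferritin shells. When iron is scarce, the iron regulatory proteins IRP1 (encoded by Aco1) and IRP2 (encoded by Ireb2) bind RNA hairpins called iron-responsive elements. Binding in a 3′ UTR protects the transferrin receptor transcript from decay, whereas binding in a 5′ UTR blocks translation of ferritin. FBXL5, an iron-sensing ubiquitin ligase subunit, removes IRP2 when iron is plentiful, and much of this control therefore acts on translation and protein stability, which RNA levels do not measure.

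The hairpins are shown first, because they mark which of the transcripts carry the textbook control element. The motif searched was an unpaired C, a stem strand of 5 bases, the loop CAGTG with 1 further base, and 5 bases that pair with the stem strand, G with T allowed. It was searched on the transcript strand of the protein-coding transcripts of GENCODE release M21 (build GRCm38, C57BL/6J sequence, not BALB/c). Capitals mark the loop with its further base, the sequence runs 5′ to 3′ in DNA letters, and 30 bases are printed for each site.
Tfrc site 1, chr16:32631219-32631248, plus strand: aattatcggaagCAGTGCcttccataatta
Tfrc site 2, chr16:32631598-32631627, plus strand: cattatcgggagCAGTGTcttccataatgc
Tfrc site 3, chr16:32631663-32631692, plus strand: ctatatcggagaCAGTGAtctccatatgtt
Tfrc site 4, chr16:32631710-32631739, plus strand: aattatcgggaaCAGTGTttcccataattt
Slc11a2 site, chr15:100395152-100395181, minus strand: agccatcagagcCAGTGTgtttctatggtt
Fth1 site, chr19:9982732-9982761, plus strand: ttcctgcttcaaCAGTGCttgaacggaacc
Ftl1 site, chr7:45459778-45459807, minus strand: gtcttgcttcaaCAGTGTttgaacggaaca

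Tfrc held 4 sites, all in the 3′ UTR in its last exon, 892 to 1383 bases after the coding sequence. Slc11a2 held 1 site, 41 bases into the 3′ UTR of one of its transcripts, with 4 of the 5 stem positions paired. Fth1 and Ftl1 held 1 site each in the 5′ UTR, 116 and 154 bases before the coding sequence, both with all 5 positions paired. The motif with all 5 pairs occurred in 0.151% of genes with a 5′ UTR and in 0.614% of genes with a 3′ UTR, and the motif with at least 4 pairs in 4.15% of the latter. The other 6 genes held no match. A match describes letters only and no binding was measured.

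**Figure D1:**
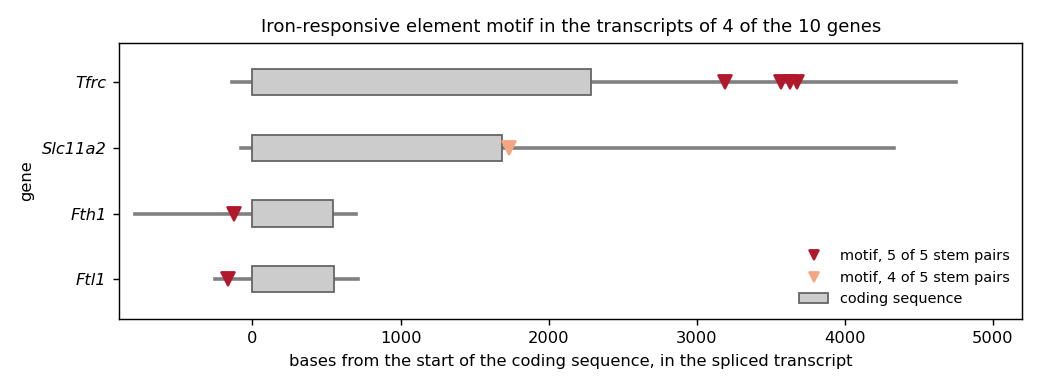
Position of the iron-responsive element motif in the spliced transcripts of Tfrc, Slc11a2, Fth1 and Ftl1. The x axis gives bases from the start of the coding sequence (grey box), lines are the untranslated ends, and triangles mark motif sites: 4 lie after the coding sequence of Tfrc and 1 after that of Slc11a2, whereas Fth1 and Ftl1 each carry 1 before it.

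The solved depth was between 14363066 fragments (HM_DFX) and 21883855 fragments (LM_DFX). Of 8 markers of mammary epithelium, 7 reached 1 FPKM in every library and Krt5 was listed at 0, while their summed level was 1767 FPKM in HM_Ctrl, 565 FPKM in HM_DFX, 2298 FPKM in LM_Ctrl and 1072 FPKM in LM_DFX. Krt8 and Krt18 made up most of each sum. In 4T1-LM Krt19 was called higher under DFX, from 46.4 to 103 FPKM, while the other markers that reached 1 FPKM were lower. No endothelial or erythroid marker reached 1 FPKM. Of the leukocyte markers, 1 of 7 did, with Ptprc at 0.0139 FPKM or less, and of the fibroblast markers 1 of 6 did (Pdgfra). That leukocyte marker, Cd68, was called higher under DFX in both clones, from 12.9 to 37.4 FPKM in 4T1-HM and from 12.3 to 83.1 FPKM in 4T1-LM, and its part in the results below was not tested. These are bulk cultures, so fewer cells expressing a gene and less RNA of it per cell cannot be told apart.

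The levels of the 10 genes spanned from 6.22 FPKM (Slc11a2 in HM_Ctrl) to 2551 FPKM (Fth1 in HM_Ctrl). In all 4 libraries the ferritin chains came first and Tfrc came next, and the remaining 7 genes lay between 6.22 and 22.3 FPKM. Among these 7, the order differed between libraries and several neighbours could not be separated beyond counting error. Examples are Ncoa4 and Ireb2 in HM_Ctrl, Fbxl5 and Steap3 in LM_Ctrl, and Ireb2 and Fbxl5 in LM_DFX.

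**Figure D2:**
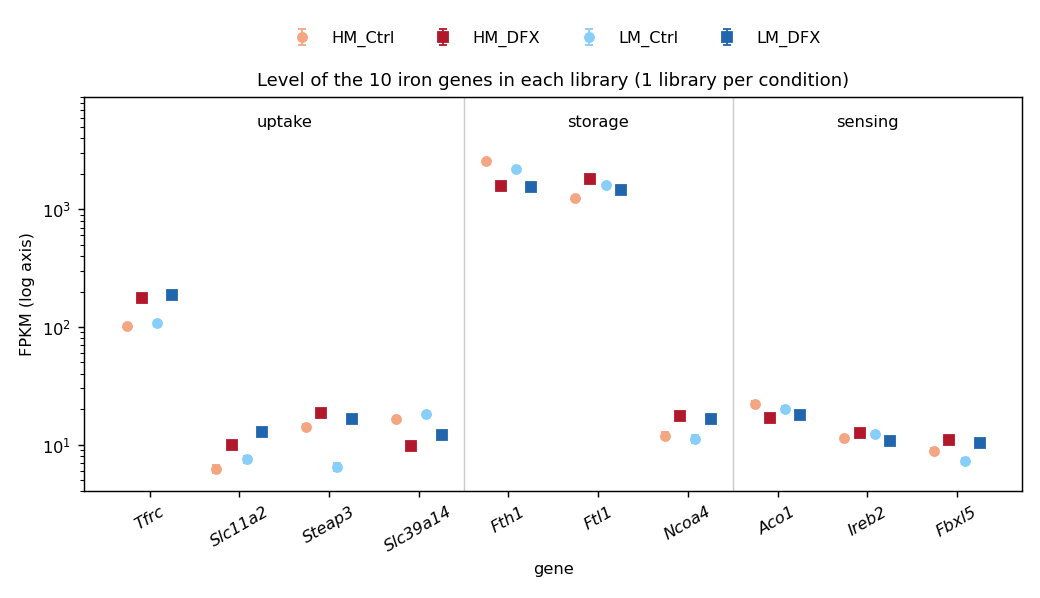
Level of the 10 genes in each library, as FPKM on a log axis. Each point is 1 library and bars are 95% intervals for counting error, mostly smaller than the points: for Tfrc the DFX libraries (175 and 188 FPKM) lie above the controls (102 and 107 FPKM), and for Fth1 they lie below.

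The first question was how the iron genes stood after 48 h of DFX in each clone. A change was called at 2-fold or more on the log2 scale of FPKM + 1. In HM_DFX against HM_Ctrl 0 of the 10 genes were called, where 19.3% of all tested genes were. In LM_DFX against LM_Ctrl 1 of the 10 was called (Steap3, higher), where 15.8% of all tested genes were called and 7.09% were called higher. Whether the iron genes were called more or less often than tested genes in general was not tested. At a lower threshold of 1.5-fold, 4 of 10 passed in 4T1-HM (Tfrc and Slc11a2 higher, Fth1 and Slc39a14 lower), beside 42.1% of all tested genes, 16.0% higher and 26.0% lower. In 4T1-LM 3 of 10 passed at 1.5-fold (Tfrc, Slc11a2 and Steap3, all higher), beside 36.4% of all tested genes, 16.5% higher and 20.0% lower. The median log2 fold change of the 10 genes was 0.32 in 4T1-HM, where the median of all tested genes was -0.10, and 0.16 in 4T1-LM, where it was -0.04.

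Tfrc, the receptor that takes up transferrin-bound iron, had 102 FPKM in HM_Ctrl, 175 FPKM in HM_DFX, 107 FPKM in LM_Ctrl and 188 FPKM in LM_DFX. Both DFX libraries were above both control libraries. The ratio of DFX to control was 1.72 (95% interval 1.67 to 1.76 for counting error) in 4T1-HM and 1.76 (1.72 to 1.80) in 4T1-LM, or 0.77 and 0.81 on the log2 scale of FPKM + 1. These placed Tfrc at percentiles 89.0 and 89.6 of the tested genes, below the 2-fold threshold in both clones. The intervals quoted here and below come from fragment numbers recovered from the FPKM, and they hold counting error alone, so the variation from culture to culture is not in them.

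Slc11a2 encodes DMT1, the transporter that moves ferrous iron out of the endosome. Its level was 6.22 FPKM in HM_Ctrl, 9.98 FPKM in HM_DFX, 7.52 FPKM in LM_Ctrl and 12.8 FPKM in LM_DFX. As for Tfrc, both DFX libraries exceeded both controls. The DFX to control ratio was 1.60 (1.45 to 1.78) in 4T1-HM and 1.70 (1.56 to 1.86) in 4T1-LM. The ratio of Tfrc to Slc11a2 within a library was 16.4 in HM_Ctrl and 17.6 in HM_DFX. It was 14.2 in LM_Ctrl and 14.7 in LM_DFX, so the level of Tfrc relative to Slc11a2 differed little between DFX and control in either clone. The FPKM sum over all transcripts of Slc11a2, so the form with the hairpin cannot be told from the form without it.

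Steap3, the reductase that converts ferric to ferrous iron in the endosome, had 14.1 FPKM in HM_Ctrl, 18.7 FPKM in HM_DFX, 6.46 FPKM in LM_Ctrl and 16.6 FPKM in LM_DFX. LM_Ctrl stood apart as the lowest of the 4 libraries, and the other 3 lay between 14.1 and 18.7 FPKM. In 4T1-LM the DFX library was 2.57 times the control (2.35 to 2.82), a log2 fold change of 1.24 and the percentile 95.4 of tested genes. In 4T1-HM it was 1.32 times the control (1.22 to 1.42), a log2 fold change of 0.38.

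Slc39a14 encodes ZIP14, a plasma membrane transporter of zinc that also takes up iron not bound to transferrin. It had 16.4 FPKM in HM_Ctrl, 9.64 FPKM in HM_DFX, 18.1 FPKM in LM_Ctrl and 12.1 FPKM in LM_DFX, and was the uptake gene of the 4 with lower values under DFX. The controls were 1.70 times (1.60 to 1.81) the DFX library in 4T1-HM and 1.49 times (1.41 to 1.57) in 4T1-LM. Among the 4 uptake genes, the 3 of the transferrin route thus had positive fold changes in both clones and the transporter of other iron had negative ones.

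**Figure D3:**
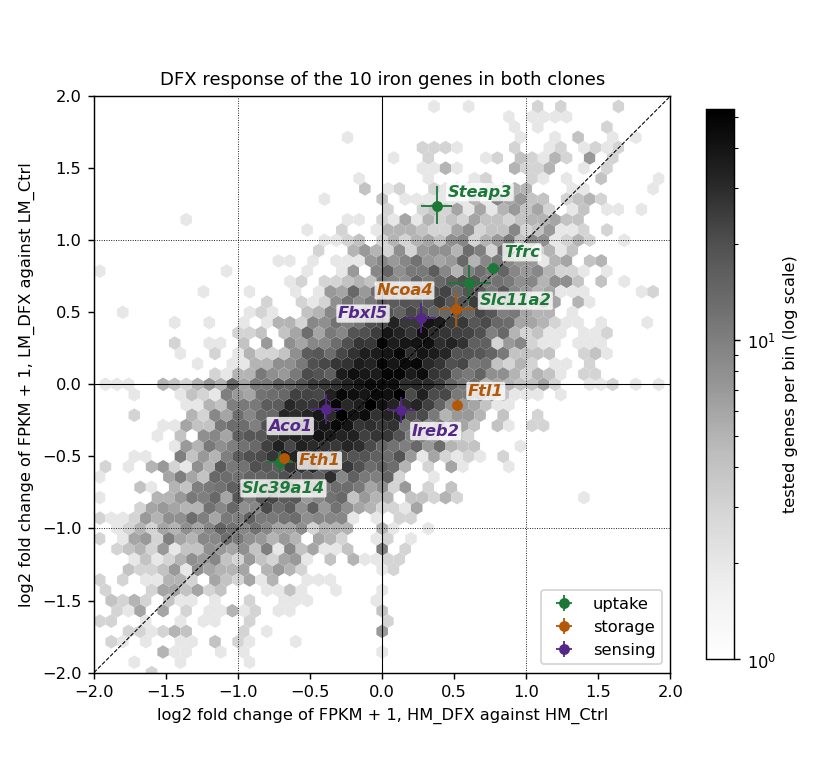
Log2 fold change of FPKM + 1 under DFX in 4T1-HM (x axis) and 4T1-LM (y axis), with the 10 genes coloured by role and 95% intervals for counting error. Grey hexagons count all tested genes within the axis range, dotted lines mark 2-fold and the dashed line equal change: Steap3 (0.38 and 1.24) is above the dotted line on the y axis alone, and Ftl1 (0.52 and -0.14) and Ireb2 (0.13 and -0.18) are in the quadrant of opposite signs.

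Fth1, the heavy chain of ferritin with the ferroxidase site, had 2551 FPKM in HM_Ctrl, 1587 FPKM in HM_DFX, 2204 FPKM in LM_Ctrl and 1552 FPKM in LM_DFX. Both DFX libraries were below both controls. The control was 1.61 times (1.58 to 1.64) the DFX library in 4T1-HM and 1.42 times (1.40 to 1.44) in 4T1-LM, or -0.68 and -0.51 as log2 fold changes under DFX. Fth1 ranked 6 of all genes by FPKM in HM_Ctrl and 8 in LM_Ctrl, against 11 in HM_DFX and 12 in LM_DFX.

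Ftl1 encodes the light chain of ferritin, which aids formation of the iron core. Its level was 1254 FPKM in HM_Ctrl, 1803 FPKM in HM_DFX, 1610 FPKM in LM_Ctrl and 1463 FPKM in LM_DFX. The ratio of DFX to control was 1.44 (1.42 to 1.46) in 4T1-HM and 0.909 (0.896 to 0.922) in 4T1-LM, so the light chain was higher under DFX in 4T1-HM and lower in 4T1-LM, and the lowest and the highest value were both in 4T1-HM.

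The balance of both chains differed between the libraries. The ratio of Fth1 to Ftl1 was 2.03 in HM_Ctrl and 0.880 in HM_DFX, against 1.37 in LM_Ctrl and 1.06 in LM_DFX. Under DFX the ratio was lower than in the control of each clone. Which chain is higher depends on the lengths used, 866 bases for Fth1 and 1340 bases for Ftl1. With Ftl1 at the 968 bases of its coding transcript with the hairpin, an alternative chosen after seeing the data, the ratio was 1.47 in HM_Ctrl and 0.636 in HM_DFX, against 0.989 in LM_Ctrl and 0.766 in LM_DFX. Only HM_Ctrl had more Fth1 than Ftl1 at both lengths. The summed FPKM of Fth1 and Ftl1 was 3805 in HM_Ctrl and 3390 in HM_DFX, against 3814 in LM_Ctrl and 3015 in LM_DFX. The ratio of Tfrc to Fth1, receptor over storage, was 0.0401 in HM_Ctrl and 0.0486 in LM_Ctrl. It was 0.111 in HM_DFX and 0.121 in LM_DFX, above both controls.

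Ferritin genes have many processed copies in the mouse genome, so their reads can be split or lost. Of the 31-base words of the coding transcripts, 92.0% were shared with other genes for Ftl1 and 7.18% for Fth1. The 8 listed genes that share most with Ftl1 summed to 37.4 FPKM in HM_Ctrl, 56.7 FPKM in HM_DFX, 54.2 FPKM in LM_Ctrl and 38.0 FPKM in LM_DFX. That is between 2.60% and 3.37% of the Ftl1 level. Gm10252, which overlaps Ftl1 on the opposite strand, was among them with 19.9 to 33.1 FPKM. The level of Ftl1 is uncertain to the extent that the counting discarded fragments matching several places, and the part of these copies in its result was not tested.

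**Figure D4:**
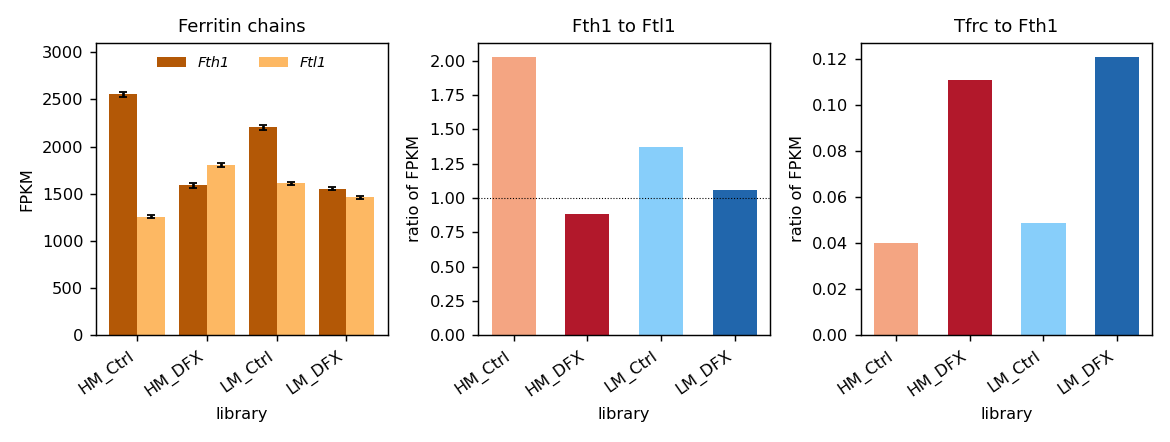
Ferritin chains and their balance in the 4 libraries. Left, FPKM of Fth1 and Ftl1 with 95% intervals for counting error; middle, the ratio of Fth1 to Ftl1, with a dotted line at equal levels; right, the ratio of Tfrc to Fth1, which is 0.0401 and 0.0486 in the controls and 0.111 and 0.121 under DFX.

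Ncoa4, the cargo receptor that delivers ferritin to the lysosome for iron release, had 11.9 FPKM in HM_Ctrl, 17.4 FPKM in HM_DFX, 11.2 FPKM in LM_Ctrl and 16.5 FPKM in LM_DFX. Both DFX libraries were above both controls, by nearly the same ratio of 1.46 (1.34 to 1.60) in 4T1-HM and 1.47 (1.35 to 1.60) in 4T1-LM. Of its coding 31-base words, 40.7% were shared with other genes. Gm6768 holds most of them and had 3.18 FPKM in HM_Ctrl, 4.36 FPKM in HM_DFX, 3.39 FPKM in LM_Ctrl and 4.20 FPKM in LM_DFX. It was higher under DFX in both clones too, and its part in the Ncoa4 values was not tested.

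Among the sensing genes no fold change under DFX reached 1.5-fold in either clone. Aco1, which encodes IRP1, a cytosolic aconitase that binds RNA when it lacks its iron-sulfur cluster, had 22.3 FPKM in HM_Ctrl, 16.8 FPKM in HM_DFX, 20.2 FPKM in LM_Ctrl and 17.8 FPKM in LM_DFX. Both DFX values were below both controls. The control was 1.33 times (1.23 to 1.44) the DFX library in 4T1-HM and 1.13 times (1.06 to 1.22) in 4T1-LM.

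Ireb2, which encodes IRP2, had 11.3 FPKM in HM_Ctrl, 12.5 FPKM in HM_DFX, 12.2 FPKM in LM_Ctrl and 10.7 FPKM in LM_DFX. DFX and control values overlapped across the clones. The log2 fold change was 0.13 in 4T1-HM and -0.18 in 4T1-LM. Each was past counting error, with ratios of 1.10 (1.03 to 1.18) and 0.873 (0.820 to 0.929), but both are small beside the fold changes of genes in general, whose middle 50% lay between -0.61 and 0.35 in 4T1-HM. Transcripts of Aco1 exceeded those of Ireb2 in every library, at a ratio of 1.97 in HM_Ctrl and 1.34 in HM_DFX, against 1.65 in LM_Ctrl and 1.67 in LM_DFX.

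Fbxl5, whose product senses iron and targets IRP2 for degradation, had 8.86 FPKM in HM_Ctrl, 10.9 FPKM in HM_DFX, 7.28 FPKM in LM_Ctrl and 10.4 FPKM in LM_DFX. Both DFX libraries were above both controls. The ratio of DFX to control was 1.23 (1.14 to 1.32) in 4T1-HM and 1.43 (1.33 to 1.54) in 4T1-LM.

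The responses of the clones were then set side by side. They share no library. Of the 10 genes, 8 kept their sign from clone to clone, 5 positive and 3 negative, where 75.9% of all tested genes agreed in sign. The difference between responses reached 2-fold for 0 of the 10, where it did for 8.90% of tested genes, and 1.5-fold for 2 of the 10, where it did for 26.2%. Those were Steap3, with a log2 difference of -0.86 (4T1-HM minus 4T1-LM), and Ftl1, with 0.66. Without the pseudocount these differences were -0.96 (-1.13 to -0.79) and 0.66 (0.63 to 0.69), with intervals for counting error alone. For Tfrc, Slc11a2 and Ncoa4 the interval of the difference held 0, at -0.08 to 0.01, -0.28 to 0.10 and -0.18 to 0.17. At this depth a difference of the clones in those responses was not detectable, which does not show that the responses are equal.

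The next question was whether the untreated clones differed. These values use the same control libraries as the comparisons above. In HM_Ctrl against LM_Ctrl 1 of the 10 genes was called (Steap3, higher), where 6.80% of all tested genes were called and 3.65% were called higher. Steap3 in HM_Ctrl was 2.19 times (1.99 to 2.42) its level in LM_Ctrl, a log2 fold change of 1.02, and the call was lost when libraries were rescaled by the median ratio (1.00, just under the threshold). The low LM_Ctrl value thus enters both of the calls made for Steap3.

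The other 9 genes were within 1.5-fold between the untreated clones, a threshold that 19.2% of all tested genes passed. Slc11a2 was higher in LM_Ctrl by a ratio of 1.21 (1.09 to 1.34) and Ftl1 by 1.28 (1.26 to 1.30). Fth1 was higher in HM_Ctrl by 1.16 (1.14 to 1.18) and Fbxl5 by 1.22 (1.12 to 1.32). Tfrc was close between them, with LM_Ctrl at 1.05 times HM_Ctrl (1.02 to 1.08), and for Ncoa4 the interval of the ratio held equality (0.962 to 1.17). The median log2 difference of the 10 genes was 0.01, equal to that of all tested genes.

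Under DFX the clones were closer for Steap3 and no gene of the 10 differed by 1.5-fold, where 24.5% of all tested genes did. In HM_DFX against LM_DFX 0 of the 10 were called, where 8.36% of all tested genes were. Steap3 in HM_DFX was 1.12 times (1.05 to 1.20) its level in LM_DFX. Slc11a2 was higher in LM_DFX by a ratio of 1.28 (1.19 to 1.39) and Slc39a14 by 1.26 (1.18 to 1.34), whereas Ftl1 was higher in HM_DFX by 1.23 (1.22 to 1.25). Tfrc again lay near equality, with LM_DFX at 1.07 times HM_DFX (1.05 to 1.10).

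A wider list of 38 genes of iron handling gives the surroundings of these 10. Of the 38, 23 reached 1 FPKM in at least 1 library and were tested. Among those not tested was the iron exporter ferroportin (Slc40a1, 0.0664 to 0.212 FPKM), and hepcidin (Hamp), transferrin (Trf in the table) and the second transferrin receptor (Tfr2) were listed at 0 in all libraries. In HM_DFX against HM_Ctrl 1 of the 23 was called higher and 3 lower, where 6.93% of all tested genes were called higher and 12.4% lower. In LM_DFX against LM_Ctrl 2 were called higher and 2 lower, where 7.09% and 8.72% were. The median log2 fold change of the 23 was 0.03 in 4T1-HM and -0.06 in 4T1-LM.

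Hmox1, heme oxygenase, which frees iron from heme, was the listed gene called higher under DFX in both clones. Its level was 34.2 FPKM in HM_Ctrl, 169 FPKM in HM_DFX, 9.91 FPKM in LM_Ctrl and 86.1 FPKM in LM_DFX. The ratio was 4.95 (4.62 to 5.31) in 4T1-HM and 8.69 (7.68 to 9.86) in 4T1-LM. Both fold changes are well beyond those of the 10 core genes.

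Steap2 and Cp were called lower under DFX in both clones. Steap2, a metalloreductase related to Steap3, had 17.1 FPKM in HM_Ctrl, 2.32 FPKM in HM_DFX, 19.1 FPKM in LM_Ctrl and 5.55 FPKM in LM_DFX. Its log2 fold change of -2.44 in 4T1-HM and -1.62 in 4T1-LM stood opposite to that of Steap3. Cp, ceruloplasmin, a copper enzyme that oxidizes iron on export, had 29.4 FPKM in HM_Ctrl, 7.26 FPKM in HM_DFX, 17.4 FPKM in LM_Ctrl and 4.89 FPKM in LM_DFX.

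The remaining called genes of the list were called in 1 clone or between clones. Hfe, a partner of the transferrin receptor, was called lower in 4T1-HM (1.67 and 0.331 FPKM) at a low level, right at the threshold, and the call was lost under median-ratio scaling. Mcoln1, a lysosomal channel that passes iron, had 12.8 FPKM in HM_Ctrl, 13.1 FPKM in HM_DFX, 4.10 FPKM in LM_Ctrl and 9.63 FPKM in LM_DFX. As for Steap3, LM_Ctrl was the lowest library, and Mcoln1 was called higher in LM_DFX against LM_Ctrl (1.06).

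Between the untreated clones 3 of the 23 were called higher in HM_Ctrl and 0 lower, where 3.65% and 3.15% of tested genes were. These were Hmox1 (log2 difference 1.69), Mcoln1 (1.44) and Scara5 (2.01), a receptor of ferritin with 3.92 FPKM in HM_Ctrl and 0.219 FPKM in LM_Ctrl, and with 1.46 FPKM in HM_DFX and 0.322 FPKM in LM_DFX. Between the clones under DFX 0 of the 23 were called on the scale of FPKM + 1, where 8.36% of tested genes were. With a pseudocount of 0.1 in place of 1, 4 low genes of the 23 passed 2-fold, where 1993 of the 12669 tested genes did. Scara5 was then higher in HM_DFX, at a plain FPKM ratio of 4.54 (3.19 to 6.57). Hfe, Slc46a1 and Steap2 were higher in LM_DFX, at ratios of 3.59 (2.13 to 6.43), 3.06 (1.62 to 6.28) and 2.39 (2.14 to 2.68). The most abundant genes of the list, the iron chaperones Pcbp2 and Pcbp1, stayed between 174 and 229 FPKM and between 157 and 195 FPKM.

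**Figure D5:**
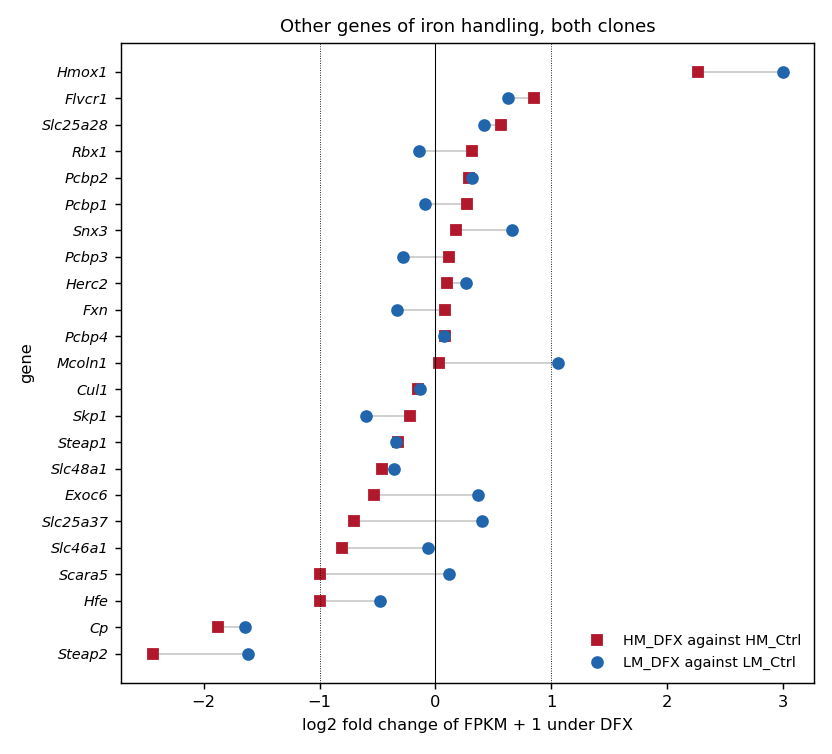
Log2 fold change of FPKM + 1 under DFX for the 23 tested genes of the wider iron list, ordered by 4T1-HM. Squares are 4T1-HM, circles 4T1-LM, and dotted lines mark 2-fold: Hmox1 lies at 2.27 and 3.00, while Cp and Steap2 lie beyond the lower line in both clones.

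Among 10 genes known from textbooks to carry an iron-responsive element, 7 were tested and 0 were called in any of the 4 comparisons. Of all tested genes, 19.3% were called in HM_DFX against HM_Ctrl and 15.8% in LM_DFX against LM_Ctrl. The share was 6.80% in HM_Ctrl against LM_Ctrl and 8.36% in HM_DFX against LM_DFX. Whether genes with the element were called less often than others was not tested. The pair with the element in the 3′ UTR and membership of the core set, Tfrc and Slc11a2, had positive log2 fold changes between 0.60 and 0.81 under DFX. The ferritin chains, with the element in the 5′ UTR, were mixed, with Fth1 at -0.68 and -0.51 and Ftl1 at 0.52 and -0.14. Other tested genes listed by textbooks for a 3′ UTR element, Cdc42bpa and Cdc14a, had 0.02 and 0.15, and -0.26 and -0.22. The motif search above found no site in the mouse transcripts of Cdc42bpa. In Cdc14a it found a 3′ UTR site with 4 of the 5 stem positions paired.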

How the data were processed

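Bulk RNA was sequenced as paired-end reads from 4 cultures of 4T1 single-cell clones, 1 library per condition, assigned by their labels. Poly(A) RNA was selected and directional libraries were made; the labels also mention depletion of rRNA. Per the submitters' processing notes the tools were FastQC, Trimmomatic, HISAT2 and featureCounts with build mm10; versions, strand setting and treatment of fragments with several matches are not given in the sources used here. The authors deposited FPKM for 49585 genes, with no filter and no pooling. Of the authors' annotation columns, the gene identifier, symbol, coordinates, strand and biotype were used. Of the per-sample columns, 0 were left unused. The study's edgeR test was not run here. How its spread was set with 1 library per condition is not given in the sources used here.

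Fold changes were log2 of the ratio of FPKM + 1 (pseudocount 1) as deposited, for the 12669 genes with at least 1 FPKM in at least 1 library, called at 2-fold. Whole fragments were recovered with exon lengths of GENCODE release M21, whose coordinates equal those of 45125 genes; between 96.6% and 96.7% of values above 0 came out within 0.02 of a whole number. Lengths of Fth1 (866 bases) and Ncoa4 (4452 bases) were solved from their own values. For Fth1 the length equals that of a coding transcript. For Ncoa4 it is the shortest that gave whole fragments, so its fragment numbers and intervals depend on that choice. Over all lists, 12 genes had a solved length equal to a coding transcript and 6 had the shortest that fitted. The solved totals were 16745608 (HM_Ctrl), 14363066 (HM_DFX), 15731520 (LM_Ctrl) and 21883855 (LM_DFX) fragments. Ratios carry exact conditional binomial (Clopper-Pearson) 95% intervals, levels exact Poisson intervals, and differences of responses a normal approximation on the log scale, all for counting error only.

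All 10 iron genes were named with every library value; genes of the wider list were named when called at 2-fold in any comparison or highest in level, with absent or low genes named after their values were seen. The 10 genes, the lists and the tests were chosen with earlier results of these data known. The values of 1 gene of the iron-responsive element list are not reported here. In the wider list 4 symbols were matched through RefSeq synonyms. Alternatives were pseudocount 0.1, no pseudocount, no filter, mean FPKM of at least 1, median-ratio and 75th percentile scaling, protein-coding genes only, and thresholds of 1.5-fold and 4-fold. The recovery of fragments was checked by how near they came to whole numbers, as given above. Variation between cultures was not tested, because each condition has 1 library. Python 3.11.15, numpy 2.4.6, pandas 2.3.3 and scipy 1.17.1 were used.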

Additional observations from a re-analysis of the deposited data

Results flagged for a closer look

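Ftl1 and Ireb2 were picked out because their fold changes under DFX had opposite signs in the clones. The log2 fold change of Ftl1 was 0.52 in 4T1-HM and -0.14 in 4T1-LM. That of Ireb2 was 0.13 in 4T1-HM and -0.18 in 4T1-LM. With 1 library per condition the difference between the clones was not tested for either gene. The Ftl1 value also carries the shared sequence described above, and Gm10252 on its opposite strand had the same order of libraries within each clone, at 22.3 FPKM in HM_Ctrl, 31.8 FPKM in HM_DFX, 33.1 FPKM in LM_Ctrl and 19.9 FPKM in LM_DFX.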

How the results depend on the processing

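The fold changes of the 10 iron genes kept their sign in all 4 comparisons (40 values) with a pseudocount of 0.1, with no pseudocount, and with median-ratio or 75th percentile scaling, and the largest shift was 0.14 on the log2 scale (median-ratio). Median-ratio scaling moved the median of all genes by 0.10 in HM_DFX against HM_Ctrl, and 46.7% of called genes were then higher, against 35.9% as deposited. There Tfrc had 0.91 and Fth1 -0.55. The near-zero difference of the clones in the response of Tfrc (-0.04) became 0.03 under that scaling.

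Called iron genes in HM_Ctrl against LM_Ctrl became 0 under median-ratio scaling. At 1.5-fold 4 iron genes passed in HM_DFX against HM_Ctrl and 3 in LM_DFX against LM_Ctrl. At 4-fold 0 passed in LM_DFX against LM_Ctrl and in HM_Ctrl against LM_Ctrl. Of the 23 tested genes of the wider list, 1.5-fold gave 8 in HM_DFX against HM_Ctrl and 7 in LM_DFX against LM_Ctrl. It gave 6 in HM_Ctrl against LM_Ctrl and 7 in HM_DFX against LM_DFX. At 4-fold the first 3 of these comparisons gave 2, 1 and 1. In HM_DFX against LM_DFX the wider list gave 4 with a pseudocount of 0.1, 1 under median-ratio scaling and 1 under 75th percentile scaling, against 0. Of all 12669 tested genes, 1.5-fold gave 5328, 4616, 2431 and 3108 in the same order and 4-fold gave 277, 314, 97 and 95. In HM_DFX against LM_DFX median-ratio scaling gave 1062 of them and 75th percentile scaling 1044, against 1059. A pseudocount of 0.1 gave 3070 in LM_DFX against LM_Ctrl, 1557 in HM_Ctrl against LM_Ctrl and 1993 in HM_DFX against LM_DFX. Calling the iron genes on the ratio without a pseudocount, an alternative chosen after seeing the data, gave the same counts in all 4 comparisons.

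No paired analysis was possible because each condition has 1 library. For the same reason no library could be left out. Variation between cultures is unknown and each clone type is 1 clone, so a difference between the clones cannot be told apart from a difference between any pair of clones or cultures. Adding the ferritin copies named as such (14 genes, summed 14.0 to 21.6 FPKM) gave a summed ferritin level of 3819 FPKM in HM_Ctrl, 3412 FPKM in HM_DFX, 3833 FPKM in LM_Ctrl and 3031 FPKM in LM_DFX, and leaves out other similar genes such as Gm10252. Scaling Ftl1 by 968 in place of 1340 bases, also chosen after seeing the data, put the ratio of Fth1 to Ftl1 in the LM libraries below 1 (0.989 and 0.766).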

Other observations

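Slc25a37, mitoferrin, which carries iron into mitochondria, belongs to the wider list and was singled out after its values were seen. It had 55.7 FPKM in HM_Ctrl, 33.9 FPKM in HM_DFX, 34.7 FPKM in LM_Ctrl and 46.2 FPKM in LM_DFX. Its log2 fold change under DFX was -0.70 in 4T1-HM and 0.40 in 4T1-LM, opposite in sign. Flvcr1, a heme exporter named in the same way, had 5.98 FPKM in HM_Ctrl, 11.6 FPKM in HM_DFX, 6.35 FPKM in LM_Ctrl and 10.4 FPKM in LM_DFX, higher under DFX in both clones and within 2-fold in each. The difference between the clones was not tested for either gene.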
